A study of Bos taurus with 14 samples.

Results

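The transporters SLC7A5, SLC3A2, SLC1A5 and SLC38A2, which carry amino acids into the cells that make milk protein, were described in mammary gland tissue of 14 Holstein-Friesian cows. Members were taken as the probe sets whose bovine symbol was 1 of these 4, and all 4 were found among 6697 named genes, with 1 probe set each. RNA of each cow was hybridised to 1 Affymetrix bovine array, and the labels name separate cows. The cows were paired in 7 blocks, with 1 Omega and 1 Control cow per block. The Omega concentrate contained linseed, a source of the omega-3 fatty acid alpha-linolenic acid (n = 7 cows), and the Control concentrate did not (n = 7 cows). Both concentrates supplemented a basal diet, and the feeding ran from 3 weeks before the expected calving until 6 weeks after calving. Neither the day of tissue sampling nor the age in years is known here. The labels gave parity 1 to 4 cows, parity 2 to 2 cows and parity 3 to 6 to the other 8. The design text counts 6 cows in their second, 2 in their next and 6 in later parities, so parity is used here as a label only. The 4 cows labelled parity 1 had recorded milk production of a previous lactation.

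Milk protein is built from amino acids drawn from blood, and mammary epithelial cells take them up through transporters of overlapping range. SLC7A5 (LAT1) exchanges large neutral amino acids such as leucine, and SLC3A2 is the heavy chain that holds it in the plasma membrane. SLC1A5 (ASCT2) exchanges small neutral amino acids, glutamine among them, with sodium, and SLC38A2 (SNAT2) takes up small neutral amino acids with sodium. In human and rodent cells, amino acid shortage raises transcription of several of these genes through the factor ATF4, and leucine inside the cell activates the growth kinase complex mTORC1.

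The tissue had the transcripts of lactating gland in every cow. PAEP, the gene of beta-lactoglobulin, lay between 14.70 and 14.81 log2, CSN3 (kappa-casein) between 14.63 and 14.74, and LALBA (alpha-lactalbumin) between 14.50 and 14.60. Values are log2 intensities as deposited, which ran from 2.26 to 14.8 over all probe sets, with array medians between 5.70 and 5.76. Of the 14 arrays, those of 2 Control cows (blocks 302 and 304) stood apart. On the first principal component, with 51.0% of the variance, they lay at 43.7 and 46.4, against -18.1 to 10.8 in the other 12 cows, of which the Omega cow of block 306 was highest. Results that rest on these cows are given with and without them. An intensity depends on the probes, so levels are compared between cows for 1 gene and not between genes.

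SLC7A5 varied more between cows than nearly all genes on the array. In Omega cows of blocks 302 to 308, in that order, it measured 10.25, 10.07, 8.69, 9.85, 7.71, 9.50 and 9.85 log2. In Control cows of the same blocks it measured 7.40, 9.88, 7.76, 9.19, 10.14, 10.64 and 10.44 log2. The low values, under 8 log2, were those of the Control cows of blocks 302 and 304 and of the Omega cow of block 306, and the diet groups overlapped over most of the range. From the lowest to the highest cow the range was 3.24 on the log2 scale, which is 9.46-fold. The SD over the 14 cows was 1.08, as high as or higher than that of 99.2% of the 7518 tested probe sets, whose median SD was 0.23. In the 12 cows without the pair that stood apart, the mean was 9.68 ± 0.82 log2 (SD, n = 12).

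SLC3A2, the partner chain of SLC7A5, spanned less. It measured 7.46, 7.57, 7.19, 6.85, 7.05, 7.25 and 7.07 log2 in the Omega cows of blocks 302 to 308. In the Control cows it measured 7.50, 6.65, 6.98, 6.91, 7.31, 7.43 and 7.15 log2. The lowest value belonged to the Control cow of block 303 and the highest to the Omega cow of the same block, and the groups overlapped. The range was 0.92 log2 or 1.90-fold, and the SD of 0.27 lay at the 62.5th percentile of the tested probe sets. The Control cow of block 302, lowest of all in SLC7A5, was the second highest in SLC3A2.

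SLC1A5 had 1 narrow upper group and a few low cows. The Omega cows of blocks 302 to 308 measured 8.66, 8.86, 8.48, 8.83, 7.64, 8.32 and 8.84 log2. The Control cows measured 6.75, 8.61, 6.96, 8.18, 8.76, 8.88 and 8.71 log2. The low cows were the 3 that were low in SLC7A5, and the other 11 lay between 8.18 and 8.88 log2. The range was 2.13 log2 or 4.38-fold, and the SD of 0.71 was at the 97.4th percentile. Without the 2 Control cows that stood apart the mean was 8.56 ± 0.37 log2 (SD, n = 12).

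SLC38A2 also stayed within a narrow range. The Omega cows of blocks 302 to 308 measured 6.61, 7.08, 7.24, 7.27, 7.18, 7.04 and 7.01 log2. The Control cows measured 6.93, 7.17, 6.50, 6.95, 7.06, 7.54 and 6.81 log2. The Control cow of block 304 was lowest and that of block 307 highest, and the groups overlapped. The range was 1.03 log2 or 2.05-fold, with an SD of 0.27 at the 61.3rd percentile. Fewer cells of a type and less RNA per cell cannot be told apart in whole tissue, which applies to every level given here.

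**Figure D1:**
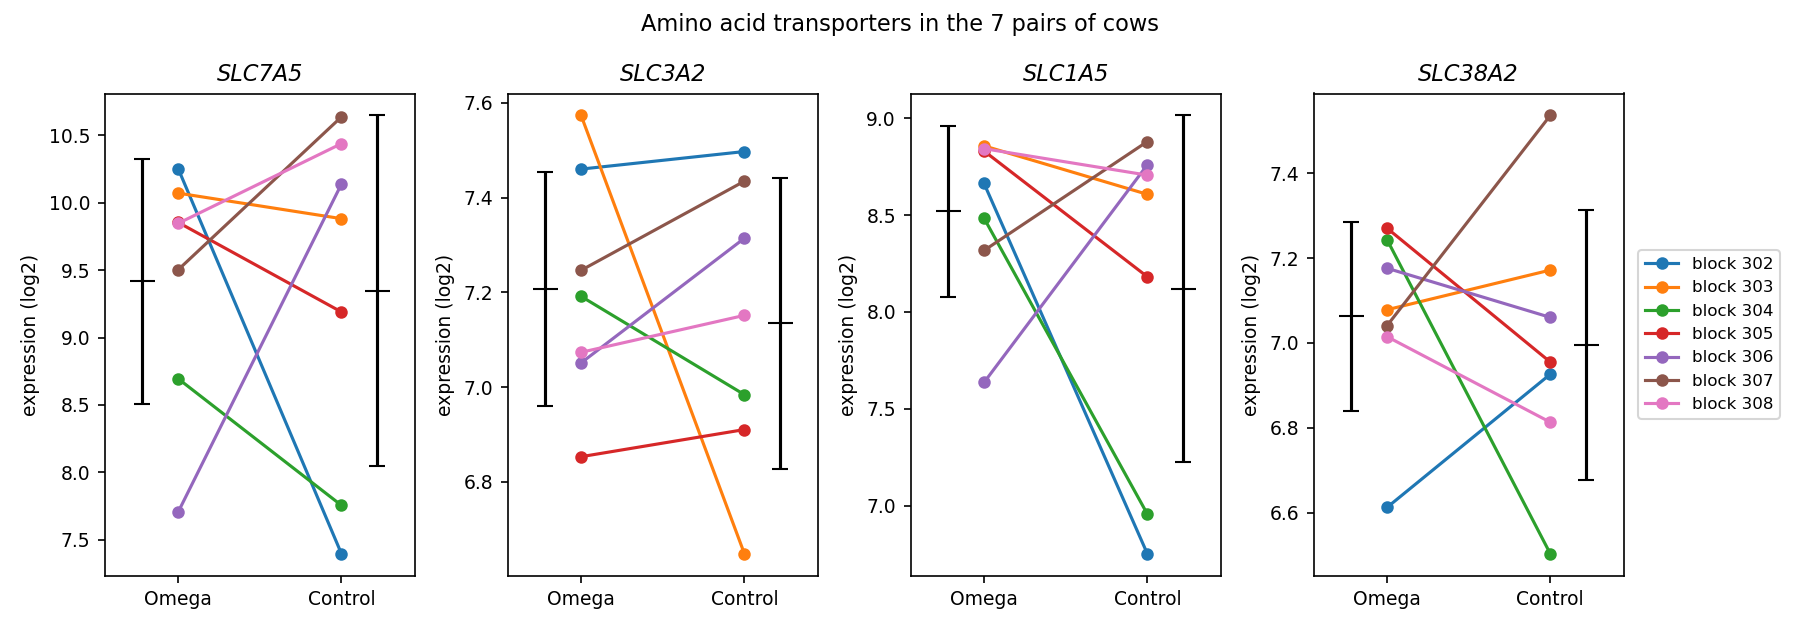
Expression (log2 intensity) of each transporter in the Omega cow and the Control cow of each block, with a line joining the cows of a block; the bars beside the points give the mean and SD of the 7 cows of a diet. In SLC7A5 and SLC1A5 the Control cows of blocks 302 and 304 and the Omega cow of block 306 lie below the other 11 cows.

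The first question was whether linseed changed the transporters. No transporter passed the test, and none of the 4 had a direction shared by all blocks. SLC7A5 averaged 9.42 ± 0.91 log2 in Omega cows and 9.35 ± 1.30 in Control cows (SD, n = 7 each). SLC1A5 averaged 8.52 ± 0.44 log2 in Omega cows and 8.12 ± 0.89 in Control cows (SD, n = 7 each). SLC3A2 averaged 7.21 ± 0.25 in Omega cows and 7.13 ± 0.31 in Control cows, and SLC38A2 averaged 7.06 ± 0.22 in Omega cows and 7.00 ± 0.32 in Control cows (SD, n = 7 each). In limma with the block as a fixed effect, 0 of the 4 transporters had an adjusted p under 0.05, against a background of 0% of 7518 probe sets. At an unadjusted p under 0.05, limma likewise gave 0 of 4, against a background of 11%.

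The diet difference of SLC7A5 changed its sign from block to block. Omega minus Control was 2.86 log2 in block 302, 0.19 in block 303, 0.94 in block 304 and 0.66 in block 305. It was -2.43 in block 306, -1.13 in block 307 and -0.59 in block 308. The Omega cow was thus higher in 4 of 7 blocks, and the largest differences of either sign came from blocks with a low cow. The limma estimate was 0.07 (95% interval -1.09 to 1.23, adjusted p = 0.955), or 1.05-fold with an interval of 0.470 to 2.35-fold. An exact sign-flip test, two-sided and over 7 blocks, gave p = 0.906, where the smallest p this design allows is 0.0156. Without blocks 302 and 304 the mean difference was -0.66 (exact p = 0.375, with 0.0625 the smallest possible over 5 blocks). The limma estimate was also below 0 without block 305 (-0.029) and with array weights (-0.12), so its sign was not determined.

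SLC1A5 differed in the same order of blocks. Omega minus Control was 1.91 log2 in block 302, 0.25 in block 303, 1.53 in block 304 and 0.65 in block 305. It was -1.12 in block 306, -0.56 in block 307 and 0.14 in block 308. The Omega cow was higher in 5 of 7 blocks. The limma estimate was 0.40 (95% interval -0.35 to 1.15, adjusted p = 0.586), which is 1.32-fold with an interval of 0.783 to 2.22-fold, and the exact sign-flip p was 0.359. Without blocks 302 and 304 it was -0.13 (exact p = 0.750). The interval spans lower as well as higher values, so a diet difference of the estimated size was not detectable with these cows.

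SLC3A2 and SLC38A2 had smaller differences and narrower intervals. For SLC3A2, Omega minus Control was 0.92 log2 in block 303 and 0.21 in block 304, and it lay between -0.26 and -0.04 in the other 5 blocks. The limma estimate was 0.07 (95% interval -0.24 to 0.39, adjusted p = 0.811; exact sign-flip p = 0.859). Without block 303 the estimate was -0.07. For SLC38A2, Omega minus Control lay between -0.50 in block 307 and 0.74 in block 304, and the Omega cow was higher in 4 of 7 blocks. The limma estimate was 0.07 (95% interval -0.25 to 0.39, adjusted p = 0.828; exact sign-flip p = 0.656). Without block 304 it was -0.05. Over the 4 transporters the exact p adjusted by Benjamini-Hochberg was 0.906 in each case. The median difference over all tested probe sets was -0.03, with 43.1% higher in Omega cows.

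**Figure D2:**
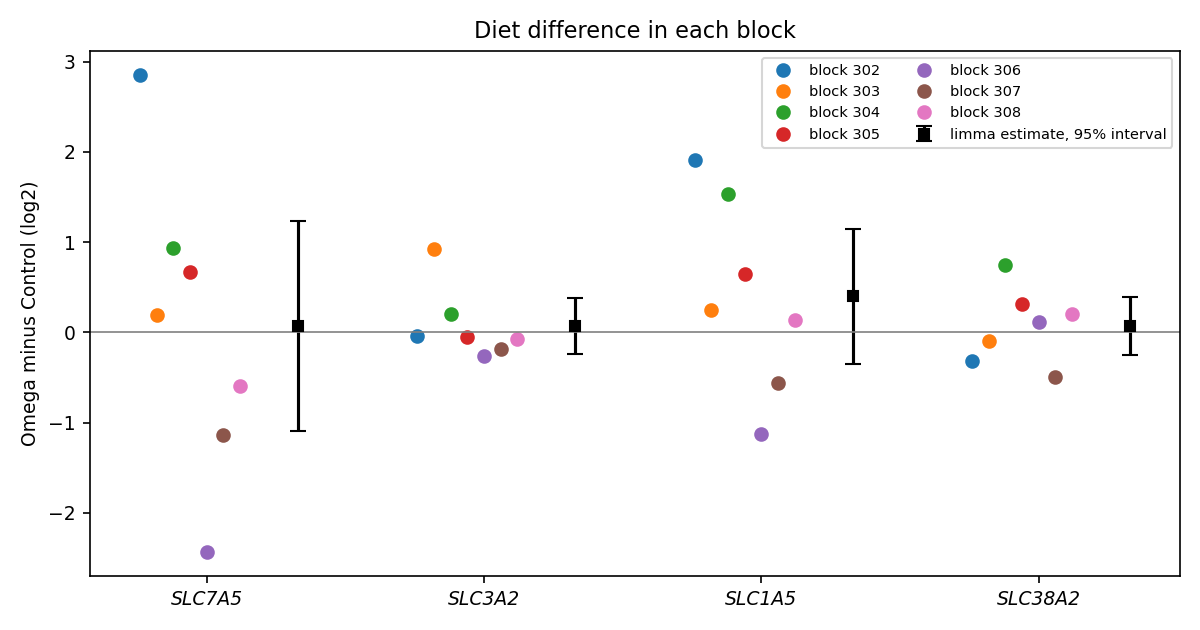
Omega minus Control (log2) of each transporter in the 7 blocks, as points, with the limma estimate and its 95% interval as a square with bars. The points of SLC7A5 run from -2.43 to 2.86 and lie on both sides of 0 in all 4 genes.

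Parity was compared next, between the 10 cows with a label above 1 and the 4 cows labelled 1, with differences given as parity 1 minus higher parity. No transporter passed the test. SLC7A5 averaged 9.59 ± 0.86 log2 in cows of higher parity (SD, n = 10) and 8.87 ± 1.53 in parity 1 cows (SD, n = 4). Its limma difference was -0.71 (95% interval -1.99 to 0.56), and that of SLC1A5 was -0.51 (-1.31 to 0.28). SLC3A2 had 0.22 (-0.11 to 0.55) and SLC38A2 had -0.12 (-0.46 to 0.23), and the limma adjusted p of all 4 was 0.983. At an unadjusted p under 0.05 limma gave 0 of 4, against a background of 2.19%, and at an adjusted p it gave 0 of 4, against 0%. Without the Control cows of blocks 302 and 304, of which 1 belongs to each class, the difference of SLC7A5 was -0.33 and that of SLC1A5 was -0.26. Without block 304 as a whole they were -1.05 (95% interval -1.99 to -0.12) and -0.70 (-1.27 to -0.13), with limma adjusted p = 0.328 and 0.316 and unadjusted p = 0.0297 and 0.0205.

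The parity 1 class was itself divided. Its SLC7A5 values were 10.25 and 7.71 log2 in Omega cows and 7.40 and 10.14 log2 in Control cows, so it held both low and high cows. The parity 2 cows, both of block 304, had 8.69 log2 (Omega) and 7.76 log2 (Control). The 8 cows of parity 3 or higher lay between 9.19 and 10.64 log2 and all exceeded the parity 2 cows. With the parity label as a straight line in limma, SLC7A5 had a slope of 0.36 log2 per unit of parity (95% interval 0.10 to 0.63, adjusted p = 0.162). SLC1A5 had a slope of 0.23 (0.07 to 0.40, limma adjusted p = 0.162). Neither passed, and 1742 of 7518 probe sets had an unadjusted limma p under 0.05 with this coding. Both cows whose arrays stood apart had a parity label of 1 or 2. Without them the slope was 0.18 (-0.07 to 0.43) for SLC7A5 and 0.09 (-0.03 to 0.22) for SLC1A5, each with a limma adjusted p of 0.865, and 377 probe sets had an unadjusted p under 0.05.

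**Figure D3:**
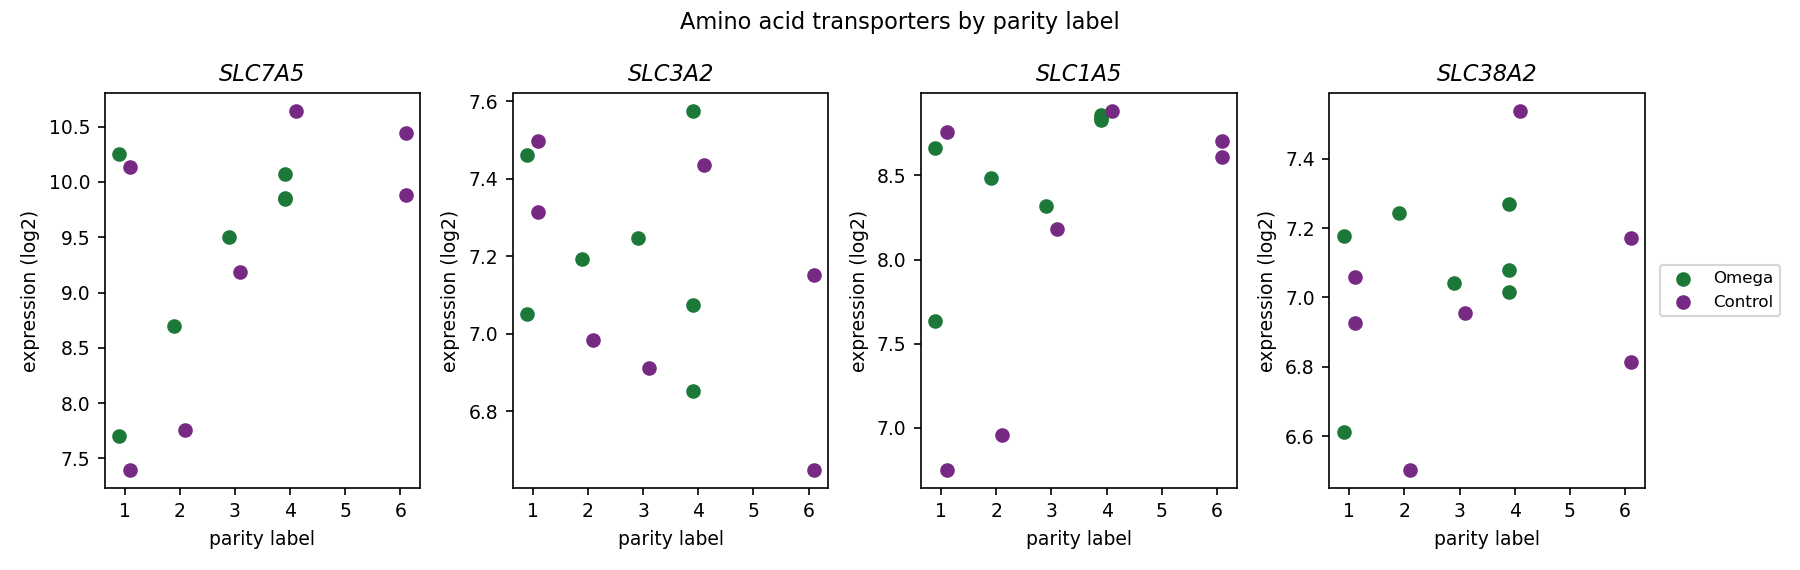
Expression (log2) of each transporter against the parity label of the 14 cows, in green for Omega and purple for Control. In SLC7A5 the parity 1 cows lie at 7.40 and 7.71 or at 10.14 and 10.25, and cows of parity 3 or higher lie between 9.19 and 10.64.

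The diet difference was not found to vary with parity class. Between blocks of parity 1 and the other blocks, the limma interaction was 0.20 (95% interval -2.59 to 2.98) for SLC7A5, -0.01 (-1.81 to 1.80) for SLC1A5, -0.31 for SLC3A2 and -0.23 for SLC38A2, with an adjusted p of 1.00 in each case. Here limma called 0 of 4 at an adjusted p under 0.05, against 0% of probe sets, and 0 of 4 at an unadjusted p under 0.05, against 1.66%. Both blocks of parity 1 contain a low cow, on opposite diets, and the intervals are wide. The interaction of SLC7A5 was -2.45 without block 302 and 2.84 without block 306 (limma adjusted p = 0.473 and 0.141).

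The transporters were also set against the recorded milk protein of the previous lactation. Only the 10 cows of higher parity were used, since the parity 1 cows formed a separate cluster of yield, at 71 to 92 against 119 to 156 in the others (unit not given in the labels). Pearson's r was 0.09 for SLC7A5, -0.08 for SLC3A2, 0.08 for SLC1A5 and 0.25 for SLC38A2, and each adjusted permutation p was 0.821. Spearman's rho lay between -0.07 and 0.31, with an adjusted permutation p of 0.918 in each case. Without the 2 cows farthest from the median yield, r was 0.16 for SLC7A5 and 0.53 for SLC3A2, with adjusted permutation p = 0.953 and 0.696.

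SLC7A5 and SLC1A5 rose and fell together from cow to cow. For SLC7A5 and its partner chain SLC3A2, r and rho were positive but did not pass the test. Over all 14 cows r was 0.92 for SLC7A5 with SLC1A5 (permutation p = 4.00e-05, adjusted over 6 pairs 0.00024), with a rho of 0.81 (adjusted permutation p = 0.00474). Over the 12 cows without the pair that stood apart, r was 0.88 (adjusted permutation p = 0.0072) and rho was 0.70 (adjusted permutation p = 0.0817). Leaving out the 2 cows of these 12 farthest from the median of SLC7A5 gave r = 0.76 (n = 10, adjusted permutation p = 0.0640). Without the 3 cows low in both genes, a choice made after the values were seen, r was 0.70 (n = 11, adjusted permutation p = 0.104). The sign and most of the size of the relation were thus present in the remaining cows, while its test after adjustment rested on the low cows.

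The relation also held within blocks. Over the 7 differences of Omega minus Control, SLC7A5 and SLC1A5 had r = 0.96 (exact permutation p = 0.000595, adjusted 0.00357), and the blocks came in the same order for both genes (rho = 1). Blocks 302 and 306, which each hold a low cow, gave the highest and the lowest difference in both genes. Without blocks 302 and 304 the remaining 5 are too few for a correlation to be given. Of the other 5 pairs of transporters none passed in 14 cows, 12 cows or block differences. SLC7A5 with SLC3A2 had r = 0.10 over 14 cows and 0.32 over 12 cows (adjusted permutation p = 0.980 and 0.746). The rho of this pair was 0.24 and 0.48 (adjusted permutation p = 0.683 and 0.345). Over the 7 block differences it had r = 0.27 and rho = 0.75 (adjusted exact permutation p = 0.927 and 0.133). SLC1A5 with SLC38A2 had r = 0.44 over 14 cows and 0.05 over 12 cows (adjusted permutation p = 0.343 and 0.864).

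**Figure D4:**
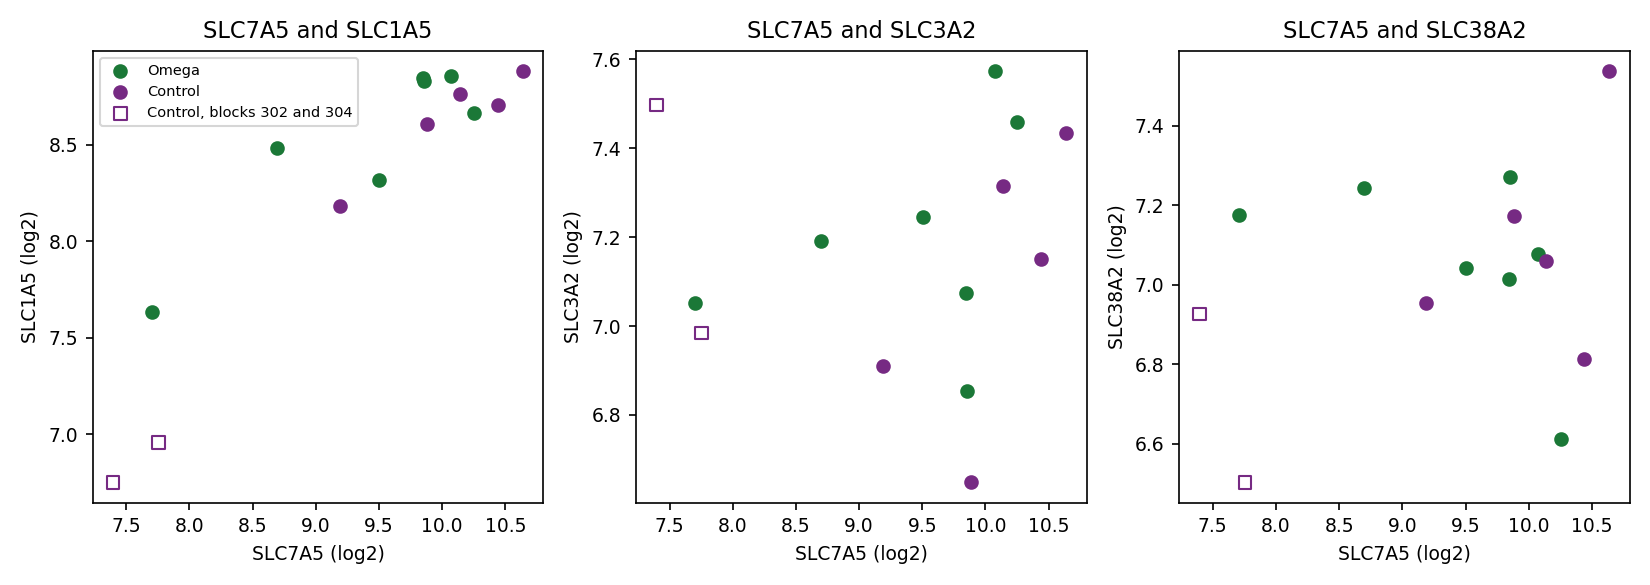
SLC1A5, SLC3A2 and SLC38A2 (log2) against SLC7A5 (log2) in 14 cows, in green for Omega and purple for Control, with open squares for the Control cows of blocks 302 and 304. SLC1A5 lies along a line with SLC7A5 (r = 0.92), while SLC3A2 (r = 0.10) and SLC38A2 (r = 0.26) scatter.

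Genes whose pattern over cows was most like each transporter were ranked by Pearson's r over the 14 cows among 4928 other named genes. These values are descriptions without a test, and they share the 2 cows that stood apart. The 5 genes most like SLC7A5 were GARS1 (r = 0.96 over 14 cows and 0.93 over 12), SLC1A4 (0.96 and 0.95), CMTM6 (0.93 and 0.89), PYCR1 (0.93 and 0.86) and MYBL2 (0.93 and 0.84). GARS1 charges glycine to its tRNA, SLC1A4 (ASCT1) carries small neutral amino acids, and PYCR1 makes proline. CMTM6 is a membrane protein and MYBL2 a transcription factor of dividing cells. The 5 most like SLC1A5 were CBS (0.97 and 0.84), SLC1A4 (0.96 and 0.87), ARHGEF16 (0.96 and 0.80), C29H11orf86 (0.95 and 0.81) and CARS1 (0.95 and 0.78). CBS joins homocysteine and serine on the way to cysteine, and CARS1 charges cysteine to its tRNA.

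SLC1A4 stood on both lists. It measured 6.66, 6.62, 6.23, 6.51, 5.88, 6.36 and 6.69 log2 in the Omega cows of blocks 302 to 308. In the Control cows it measured 5.38, 6.56, 5.33, 6.30, 6.54, 7.02 and 6.81 log2. Its lowest cows were the same 3 as in SLC7A5 and SLC1A5. CBS measured 4.17 and 4.42 log2 in the Control cows of blocks 302 and 304 and 5.45 log2 in the Omega cow of block 306, against 5.60 to 6.44 log2 in the other 11 cows.

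The genes most like SLC3A2 and SLC38A2 were others, with lower r. For SLC3A2 they were NDRG1 (0.78 over 14 cows and 0.74 over 12), NFU1 (0.73 and 0.69), SMARCAL1 (0.72 and 0.76), PLSCR3 (0.71 and 0.81) and C7H19orf25 (0.70 and 0.74). NDRG1 is a stress-responsive gene and NFU1 serves iron-sulfur cluster assembly. For SLC38A2 they were KCMF1 (0.83 and 0.78), KCTD20 (0.81 and 0.70), STXBP2 (0.77 and 0.62), MAP7 (0.75 and 0.63) and ZNF667 (0.74 and 0.68). KCMF1 is a ubiquitin ligase, STXBP2 acts in vesicle fusion and MAP7 binds microtubules.

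**Figure D5:**
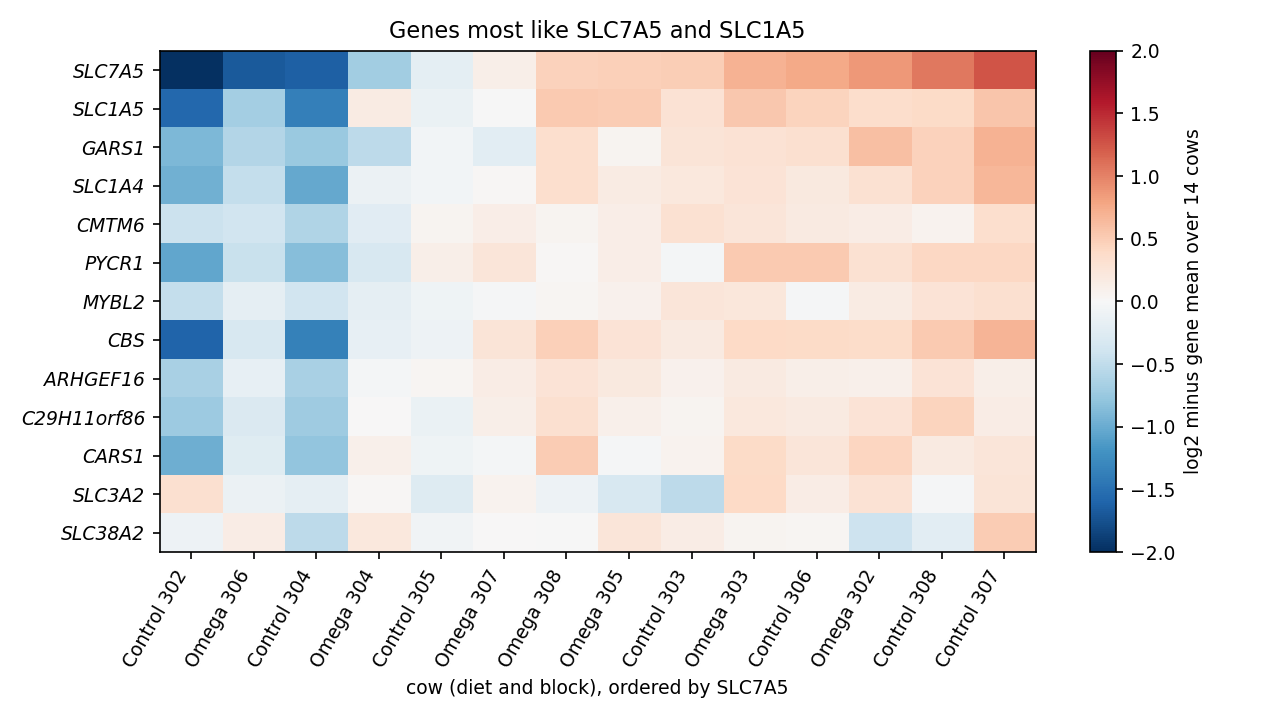
Log2 values of 13 genes minus each gene's mean over 14 cows, with cows ordered from low to high SLC7A5 and colour from blue (below the mean) to red (above it). The 9 genes most like SLC7A5 or SLC1A5 are blue in the Control cows of blocks 302 and 304 and the Omega cow of block 306, and SLC3A2 and SLC38A2 in the bottom rows are not uniformly so.

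Lists of other genes that handle amino acids were read in the same way. Over the 12 cows, 2.96% of all 4928 named genes had an r above 0.7 with SLC7A5, and the median r was -0.05. Of the amino acid response list (ATF4 and genes tied to it, with stress genes such as HSPA5 and XBP1), 6 of 20 tested genes did (30%). The median r was 0.52. The 6 were CBS (0.94), VLDLR (0.88), PSAT1 (0.86), ATF4 itself (0.80), CEBPG (0.77) and CHAC1 (0.74), named after their values were seen. Other genes of the list ran the other way, such as DDIT4 (-0.54) and NUPR1 (-0.49), with 0 of 20 below -0.7. PSAT1 belongs to serine synthesis, CEBPG pairs with ATF4 on DNA, and CHAC1 breaks down glutathione. Of the cytosolic tRNA synthetases 5 of 20 exceeded 0.7, among them AARS1 (0.89), YARS1 (0.88), MARS1 (0.78) and WARS1 (0.71) beside GARS1. The same list also held AIMP1 (-0.83), a scaffold protein of the synthetase complex, so its members did not move as one. Of amino acid metabolism 3 of 20 exceeded 0.7, and of the mTORC1 pathway 0 of 17 did. SESN1, a sestrin that restrains mTORC1, was at -0.74 and was the only gene of the 17 below -0.7. That is 5.88%, near the 6.21% of all named genes.

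The other amino acid transporters were fewer on the array. Of 37 listed genes 14 had a named probe set and 7 passed the filter on low values. For diet, limma placed 4 of these 7 higher and 3 lower in Omega cows, against 43.1% of all tested probe sets higher. Their median was 0.03, and 0 passed at an adjusted p under 0.05. SLC38A11 had a difference of 0.36 (limma adjusted p = 0.476), SLC38A3 (SNAT3) 0.34 (0.535) and SLC38A7, a lysosomal transporter, -0.15 (0.611). SLC15A4, SLC43A2, SLC1A4 and SLC7A7 were the other tested genes, with differences within the range of -0.15 to 0.36. SLC15A1, SLC1A1, SLC1A3, SLC38A5, SLC6A14, SLC6A6 and SLC7A9 were below the filter.

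Several of these transporters differed in the 2 Control cows that stood apart, in either direction. These cows were set apart by the first principal component of all tested probe sets, with 51.0% of the variance. Genes of any kind can therefore separate them, and the share of all probe sets that did was not counted. SLC38A3 was at 5.24 and 5.29 log2 in them, against 6.28 to 6.85 in the other 12 cows. SLC7A7, the light chain that exports basic amino acids, was at 6.11 log2 in both, against 4.78 to 5.31. SLC38A7 was at 7.28 and 7.37 log2, against 5.94 to 6.89. SLC6A14, a concentrative transporter of neutral and basic amino acids, was at 5.88 and 5.98 log2, against 2.89 to 4.05, and is below the filter in mean. SLC15A4 and SLC43A2 did not separate these cows from the rest.

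For diet no gene of the related lists passed limma at an adjusted p under 0.05. Of all tested probe sets 43.1% were higher in Omega cows, which is the share to set beside the counts below. The mTORC1 pathway had 9 of 17 genes higher and 8 lower in Omega cows, with a median of 0.05 (-0.03 with array weights). Among them the Rag GTPase gene RRAGB had -0.56, the mTORC1 inhibitor gene AKT1S1 0.22 and the elongation factor gene EEF2 -0.38 (limma adjusted p = 0.447, 0.450 and 0.450). The amino acid response list had 11 of 20 higher, with a median of 0.06 (-0.12 without blocks 302 and 304). In it PSPH of serine synthesis had 0.63 (limma adjusted p = 0.450), the chaperone gene HSPA5 -0.28 (0.449) and XBP1 -0.26 (0.467). The tRNA synthetases had 6 of 20 higher and 14 lower, with a median of -0.06 (0.02 after quantile normalization). In that list AIMP2 had -0.31, QARS1 -0.26 and KARS1 -0.26 (limma adjusted p = 0.447, 0.447 and 0.477). Amino acid metabolism had 14 of 20 higher, with a median of 0.08 (-0.03 without block 302), and IVD of leucine breakdown had 0.39, GPT 0.24 and BCKDHB 0.30 (limma adjusted p = 0.447, 0.460 and 0.465). The milk proteins had 3 of 8 higher, with a median of -0.01; BTN1A1 had 0.20, LTF -0.82 and PAEP -0.03 (limma adjusted p = 0.543, 0.593 and 0.833).

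The scores of luminal and basal epithelial markers ran opposite to SLC7A5 and SLC1A5, and the scores of other lists varied in their relation to both. A list was scored in each cow by the mean of its genes' log2 values, after each gene was centred to average 0 over the 14 cows. The luminal epithelium list, KRT8 and EPCAM among its 7 of 11 genes tested, scored 0.96 and 0.86 in the Control cows of blocks 302 and 304 and 0.40 in the Omega cow of block 306. The other 11 cows lay between -0.47 and 0.13. Over diets the score ran from -0.47 to 0.40 in Omega cows and from -0.28 to 0.96 in Control cows. Its r with SLC7A5 was -0.92 over 14 cows and -0.88 over 12, and with SLC1A5 -0.95 and -0.77. The basal list (5 of 9 tested) scored 0.56, 0.41 and 0.17 in these 3 cows, against -0.35 to 0.15 in the rest. Over 14 cows, 6 of 7 luminal and 2 of 5 basal genes had an r below -0.7 with SLC7A5, against 18.2% of all named genes. Over 12 cows 3 luminal genes and 1 basal gene did, against 6.21%. Not every marker followed its score. With SLC7A5, luminal CLDN3 had r = 0.45 over 14 cows and -0.04 over 12, and basal OXTR had 0.29 and 0.42. With SLC3A2 and SLC38A2 the luminal score had r = -0.32 and 0.26 over 12 cows.

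The mTORC1 and milk protein scores were also higher in all 3 cows. The mTORC1 score was 0.11, 0.09 and 0.20 in them, in the same order, against -0.12 to 0.01 in the other 11. Its r with SLC7A5 was -0.83 over 14 cows and -0.76 over 12. The genes of this list did not share that direction. Their median r with SLC7A5 was -0.31 over 14 cows and -0.05 over 12. Over 14 cows r ran from -0.78 for EIF4B to 0.73 for NPRL2. The milk protein score was 0.26, 0.17 and 0.18, against -0.32 to 0.13. Its r with SLC7A5 was -0.77 over 14 cows and -0.62 over 12. Single milk protein genes diverged from their score, with a median r of 0.12 over 14 cows and 0.09 over 12. Over 14 cows their r ran from -0.85 for LTF to 0.71 for BTN1A1. LTF had the widest limma interval of the list for diet (-2.41 to 0.77), so it can weigh most in the score. Of all cows, CSN1S1 was lowest in the Control cow of block 304 (13.46 log2) and LALBA in that of block 302 (14.50 log2). CSN3 was highest in the Control cow of block 302 (14.74 log2) and PAEP in that of block 304 (14.81 log2).

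Fibroblast and leukocyte markers were high in the pair that stood apart and not in the Omega cow of block 306. Fibroblast markers (8 of 11 tested) scored 0.87 and 0.71 in it, against -0.40 to 0.19 in the other 12 cows, the Omega cow of block 306 among them at -0.19. Leukocyte markers (10 of 16 tested) scored 0.34 and 0.60, against -0.23 to 0.12. Endothelial markers (8 of 10 tested) scored 0.29 and -0.05 in the pair, against -0.25 to 0.17. Adipocyte markers (only 2 of 8 tested) scored 0.17 and -0.21, against -0.29 to 0.54, so neither score set the pair apart. The r of the score with SLC7A5 was -0.19 over 14 cows and 0.16 over 12 for endothelial markers, and -0.27 and -0.42 for adipocyte markers. For fibroblast markers it was -0.75 and -0.36, and for leukocyte markers -0.63 and -0.07. Endothelial and adipocyte scores average over genes that opposed each other with SLC7A5. Over 14 cows r was 0.75 for KDR and -0.71 for PECAM1, and 0.51 for FABP4 and -0.85 for CFD. Over diets, fibroblast scores ran from -0.40 to 0.19 in Omega cows and from -0.31 to 0.87 in Control cows, and leukocyte scores from -0.19 to 0.12 and from -0.23 to 0.60. No listed value is at 0 on this log scale. For diet, limma had all 8 fibroblast markers lower in Omega cows (median -0.40), among them DCN at -0.50 and VIM at -0.40. It had 9 of 10 leukocyte markers lower (median -0.12) and 5 of 7 luminal markers lower (median -0.26). Of all tested probe sets 43.1% were higher in Omega cows, and 0 of these markers passed at an adjusted p under 0.05. Without blocks 302 and 304 the diet medians were -0.16 for fibroblast, 0.04 for leukocyte and 0.13 for luminal markers. The 3′ minus 5′ signal of the GAPDH control probes, a measure of RNA quality, was 0.80, 0.78 and 0.85 in the 3 low cows and 0.81 to 1.40 in the other 11. The same measure for actin was 2.44, 2.43 and 2.28 in the 3 low cows, within the 2.09 to 2.69 of the other 11. Over 14 cows r with SLC7A5 was 0.60 for GAPDH and -0.20 for actin, and over 12 cows 0.49 and 0.09. With SLC38A2 it was 0.61 for GAPDH and -0.57 for actin over 14 cows, and 0.53 and -0.52 over 12 cows. The part of these markers and of RNA quality in the levels of the transporters was not tested.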

How the data were processed

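Mammary tissue of 14 cows was measured on 1 Affymetrix array each. The authors deposited log2 intensities in 1 table. RMA and GCRMA are named per the submitters' processing notes, without versions or which made the deposited log2 values. Of 10852 rows, 112 were control probe sets. Accessions were matched to the RefSeq gene table of ARS-UCD2.0, which named 6749 probe sets.

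Probe sets with a mean above the 30th percentile (log2 4.59) were tested, 7518 in all, with limma 3.58.1 in R 4.3.3 (lmFit, eBayes) and Benjamini-Hochberg adjustment over all of them. Diet was fitted with fixed blocks, and parity with diet as a term and random blocks (duplicateCorrelation, consensus 0.037). Labels and design text give the pairing; across probe sets, the cows of a block deviated from their diet means with r between -0.47 and 0.32, above 0.1 in 3 of 7 blocks. Permutation tests drew 100000 orders, or all of them for 7 blocks (scipy 1.17.1). The fits were tested on simulated data. Members and lists were chosen with earlier results of these data known. Named genes were every transporter listed, up to 3 genes per other list with the smallest unadjusted p for diet, and the 5 most alike per transporter. Genes outside these rules were named for their levels or, after the values were seen, for their r with SLC7A5. Alternatives varied the filter, normalization, array weights, variance model, covariates, block and cows. Arrays give no read depth; their number limits the precision.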

Additional observations from a re-analysis of the deposited data

Results flagged for a closer look

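Of 20 groups of values checked with Dixon's test, 3 had a value far from the others, where chance gives about 1 in 20. In SLC3A2 the difference of block 303, 0.92 log2, lay far above those of the other 6 blocks. In SLC1A5 the Control cow of block 304, at 6.96 log2, lay far below the other 9 cows of parity above 1. In SLC38A2 the Omega cow of block 302, at 6.61 log2, lay far below the other 6 Omega cows.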

How the results depend on the processing

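No transporter passed limma's adjusted threshold for diet, parity or their interaction under any alternative run, and the causes of the changes below were not tested. For diet, leaving out each block in turn gave SLC7A5 from -0.39 to 0.49 (-0.39 without block 302, -0.075 without 304 and -0.029 without 305), SLC3A2 from -0.069 (without block 303) to 0.13, SLC1A5 from 0.15 to 0.65 and SLC38A2 from -0.045 (without block 304) to 0.16. Array weights gave -0.12 for SLC7A5, the parity label as a covariate gave -0.022 for SLC3A2, and leaving out blocks 302 and 304 gave -0.66 for SLC7A5 and -0.13 for SLC1A5. With no replicate block in place of the paired fit, limma gave 0.07 for SLC7A5 (adjusted p = 0.956) and 0.40 for SLC1A5 (0.588), with 0 probe sets passing, and the block changed no call. For parity, leaving out each block gave SLC7A5 from -1.05 (without block 304) to -0.58 and SLC1A5 from -0.76 (without 306) to -0.27, and array weights gave -0.29 and -0.26; without block 304 both had an unadjusted limma p under 0.05. SLC38A2 ran from -0.29 to 0.055 (without block 302). For the interaction, SLC1A5 was 0.018 with centred arrays and 0.079 with array weights, and with each block left out it ran from -1.53 to 1.51 (0.28 without block 304, 0.056 without 305 and 1.51 without 306). SLC7A5 ran from -2.45 (without block 302) to 2.84 (-0.089 without 307), and it was -2.22 without blocks 302 and 304, where SLC38A2 was 0.13 and 3 probe sets passed, none a transporter. For covariation, SLC7A5 with SLC1A5 fell short without the 3 low cows, an alternative chosen after seeing the data (r = 0.70). SLC7A5 with SLC38A2 was -0.14 without the 2 cows that stood apart and -0.059 without the 3 low cows. SLC3A2 with SLC1A5 was -0.022 without the 2 cows farthest from the median, and SLC3A2 with SLC38A2 was 0.030 there, 0.070 after quantile normalization and 0.073 over blocks. For previous milk protein, r was 0.53 for SLC3A2 without the 2 farthest cows and -0.028 for SLC1A5 without the Control cow of block 304.

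Counts at an unadjusted limma p under 0.05 moved with single blocks. For diet 827 probe sets became 434 without block 304, 516 without 303 and 494 without blocks 302 and 304. The slopes on parity without the 2 cows that stood apart were an alternative chosen after seeing the data. For parity 165 became 1103 without block 304, 85 without 302 and 102 without 305. For the interaction 125 became 1511 without block 306, 718 without 302, 202 without 304, 72 without 305, 910 without blocks 302 and 304, and 9 with array weights. Quantile normalization moved the share called higher for diet to 393 of 781, against 284 of 827. Another probe set per gene could not be tried, since each transporter has 1. Signals near the top of the scale can be compressed, and 14 arrays limit what can be detected.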
